A study of Mus musculus with 36 samples.

Results

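The 10 genes described here encode enzymes that make serine, move single-carbon units on folate, or transfer methyl groups: Phgdh, Psat1, Psph, Shmt1, Shmt2, Mthfd1, Mthfd2, Nnmt, Inmt and Sardh. They were chosen by their CPM levels in these same 36 libraries, with earlier results known, and taken by symbol from the 37417 gene rows of the raw count matrix, and all 10 were present. The 36 libraries came from subcutaneous tumours of wild-type mice aged 12 weeks and killed at end stage, 1 library per tumour. The labels give MC38 and PancO2 tumours to C57BL/6J mice and CT26 tumours to BALB/c mice, and each model was treated intraperitoneally with control IgG from rat serum, anti-CTLA4 or anti-PD-1 at 10 mg/kg, with 4 libraries in each of the 9 labelled groups. MC38 and CT26 are transplantable colon carcinoma lines and PancO2 (Panc02) is a pancreatic ductal carcinoma line, so a tumour here is the progeny of cultured cells with host stroma and leukocytes, not a spontaneous cancer. Levels are given in CPM, a gene's count scaled to the library's total of counts assigned to genes, so that all libraries share 1 scale.

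Serine is built from the glycolytic intermediate 3-phosphoglycerate by Phgdh, Psat1 and Psph in turn. Serine hydroxymethyltransferase then passes a carbon from serine to tetrahydrofolate, in the cytosol through Shmt1 and in mitochondria through Shmt2, and Mthfd1 (cytosolic) and Mthfd2 (mitochondrial) convert the folate-bound carbon between its oxidation states for purine, thymidylate and methionine synthesis. Nnmt and Inmt spend S-adenosylmethionine to methylate nicotinamide and indolethylamines, and Sardh, a mitochondrial dehydrogenase, removes the methyl group of sarcosine and returns its carbon to folate. Serine synthesis and the mitochondrial folate enzymes are known to be raised in many proliferating tumours and to be targets of the transcription factor ATF4 in the amino acid stress response.

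The libraries fell into 3 expression classes that did not follow the labels, so the members are described by class first. A library was placed in the H2-Ea-ps class when it held more than 10 CPM of H2-Ea-ps, an MHC class II gene that is silent in C57BL/6 mice and expressed in BALB/c mice, and in the Cp-high class when it held more than 1000 CPM of Cp (ceruloplasmin). The remaining libraries had neither. Each class held 12 libraries. H2-Ea-ps lay between 32.8 and 134 CPM inside its class and at most at 0.0845 CPM outside it, and Cp lay between 1389 and 2168 CPM inside its class and at most at 611 CPM outside it. The H2-Ea-ps class held 4 libraries labelled CT26, 4 labelled MC38 and 4 labelled PancO2. The Cp-high class held 3, 4 and 5 of them and the neither class 5, 4 and 3. Of the 12 libraries labelled BALB/c, 4 expressed H2-Ea-ps, and so did 8 of the 24 labelled C57BL/6J. Class and label thus disagreed in many libraries, and every model or treatment value below is that of the libraries so labelled. One library, PancO2 anti-PD-1 71, stood apart: it had the fewest assigned counts (7883106, against 11821687 to 41751023 in the other 35), 15.7% of them from mitochondrial genes (2.80% to 4.35% in the others) and 86.5% of its reads in the unassigned lines of the count file (44.8% to 63.4%). It belonged to the H2-Ea-ps class, and counts, relations and limits of ranges that it changed are given with and without it. Leaving it out moved no member's median in that class by more than 2.76% (Nnmt, 13.2 to 13.5 CPM), and the medians of the other pathway genes by at most 7.26% (Hnmt) and of the stress response genes by at most 5.52% (Trib3).

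The labelled tissues were checked against marker genes. Among the 6 pancreas markers, Ptf1a was at 0 in every library and Cpa1 and Prss2 had medians under 0.1 CPM in every class, whereas Pdx1 had a median of 5.02 CPM in the H2-Ea-ps class, 55.6 in the Cp-high class and 0.0333 in the neither class. Krt19 had medians of 0.135, 21.3 and 0.206 CPM and Sox9 of 43.7, 128 and 158 CPM in the same order. Among the 6 colon epithelium markers, Krt20 had medians of 161, 0.112 and 0.491 CPM in that order, Krt8 of 0.409, 435 and 141, Cdh1 of 1.80, 8.44 and 5.70 and Cdx2 of 0.247, 8.14 and 0, and Epcam and Vil1 had medians under 1 CPM in all 3 classes. The 4 hepatocyte markers summed to at most 1.90 CPM, and of the 5 adipocyte markers Adipoq, Plin1, Cidec and Lep had medians under 0.5 CPM in every class. The fifth, Fabp4, had medians of 37.2, 3.66 and 17.2 CPM, so that the adipocyte sum ran from 23.2 to 49.9 CPM in the H2-Ea-ps class, from 0.767 to 17.3 in the Cp-high class and from 10.8 to 33.3 in the neither class. The 5 skin markers measured summed to 533 CPM in PancO2 IgG 48, a Cp-high library, with class medians of 2.97, 4.75 and 5.57 CPM. All 8 fibroblast markers were detected, with sums of 1907 to 3892 CPM in the H2-Ea-ps class, 3288 to 6451 in the Cp-high class and 5645 to 12804 in the neither class. The single markers did not share that order. Col1a1, Col3a1, Pdgfra and Fap had their highest medians in the neither class, and Dcn, Lum and Pdgfrb in the Cp-high class. Col1a2 was highest in the H2-Ea-ps class, with medians of 1400, 204 and 644 CPM in the H2-Ea-ps, Cp-high and neither classes. For Dcn they were 183, 2313 and 794 CPM. In bulk tumours, fewer cells of a type and less RNA per cell cannot be told apart.

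The regions upstream of 4 genes are shown because their levels carry the main contrasts: Inmt and Sardh, which were present in some classes and near absent in others, Psat1, which led a set of genes varying together, and Asns, the asparagine synthetase gene of the amino acid response that varied with Psat1. Each sequence runs from 250 bases before to 50 bases after the RefSeq transcription start (GRCm38.p6), 5′ to 3′ on the gene's own strand, which is the minus strand for all 4. Capitals mark matches to the TATA box TATAAA, the GC box GGGCGG or the C/EBP-ATF composite TGATGNAA. The E-box CACGTG was also searched, and every motif was read on both strands.
Inmt, chr6:55174941-55175240: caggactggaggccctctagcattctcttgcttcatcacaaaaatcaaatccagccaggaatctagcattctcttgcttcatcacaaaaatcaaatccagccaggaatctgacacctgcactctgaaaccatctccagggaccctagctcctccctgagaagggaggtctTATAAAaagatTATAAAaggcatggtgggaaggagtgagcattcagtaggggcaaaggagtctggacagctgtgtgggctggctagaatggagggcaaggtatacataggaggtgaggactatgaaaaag
Sardh, chr2:27247254-27247553: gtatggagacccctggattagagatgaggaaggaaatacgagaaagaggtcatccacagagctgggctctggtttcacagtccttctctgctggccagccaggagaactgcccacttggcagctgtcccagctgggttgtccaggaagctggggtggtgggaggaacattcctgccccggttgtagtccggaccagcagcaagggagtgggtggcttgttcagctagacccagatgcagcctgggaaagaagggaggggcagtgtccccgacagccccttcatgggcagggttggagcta
Psat1, chr19:15924573-15924872: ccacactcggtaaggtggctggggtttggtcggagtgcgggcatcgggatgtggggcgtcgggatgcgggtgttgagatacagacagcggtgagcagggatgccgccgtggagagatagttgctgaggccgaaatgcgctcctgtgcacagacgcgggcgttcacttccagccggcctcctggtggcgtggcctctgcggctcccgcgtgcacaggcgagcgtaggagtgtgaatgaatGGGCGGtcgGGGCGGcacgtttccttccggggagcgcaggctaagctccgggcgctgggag
Asns, chr6:7693160-7693459: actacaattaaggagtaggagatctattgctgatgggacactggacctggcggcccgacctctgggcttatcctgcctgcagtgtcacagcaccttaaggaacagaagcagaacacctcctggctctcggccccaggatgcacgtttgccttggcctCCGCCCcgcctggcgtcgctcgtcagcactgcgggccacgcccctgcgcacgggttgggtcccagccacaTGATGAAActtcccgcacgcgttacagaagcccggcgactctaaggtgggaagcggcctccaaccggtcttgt
The Inmt region held TATAAA at 80 and at 69 bases before the start and no CG dinucleotide, and the Sardh region held 4 CG dinucleotides and none of the 4 motifs. The Psat1 region shown held 30 CG dinucleotides and 2 GC boxes, at 11 and 2 bases before the start. A second Psat1 start in the table had 20 CG dinucleotides and no match. The Asns region held a GC box at 93 bases and the composite TGATGAAA at 23 bases before the start, the latter a motif found in 3.97% of the 32851 regions of the same length. It was found in 0 of the 10 regions of the 9 members in the table, and CACGTG (7.15% of all regions) was in 0 of the 10 as well. The GC box, in 35.7% of all regions, was in 4 of the 10, and TATAAA, in 13.6%, was in 2 of the 10, those of Inmt and Phgdh. Over all regions the median was 7 CG dinucleotides, and 38.0% held fewer than 5. A match is a run of letters, and no binding was measured.

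Across classes, Inmt was high only where Cp was high, Sardh was high in the H2-Ea-ps and Cp-high classes and near absent in the third, and most of the serine and folate enzymes were highest in the H2-Ea-ps class. The classes were cut from measured values and the genes were chosen with these results known, so class differences are given as descriptions with no test.

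**Figure D1:**
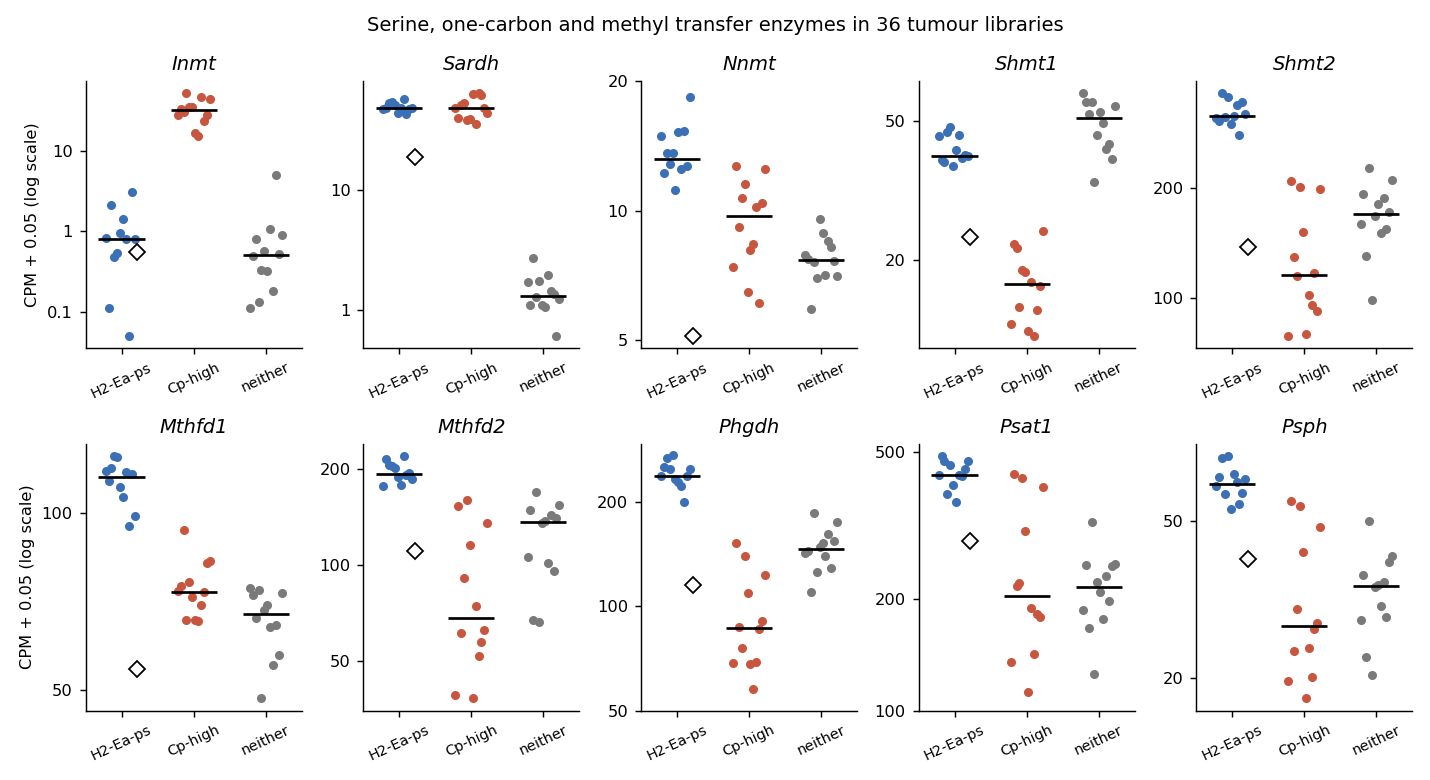
Level of each of the 10 genes in 36 tumour libraries, as CPM plus 0.05 on a log scale, by class (12 libraries each); bars are class medians and the open diamond is PancO2 anti-PD-1 71. Inmt separates the Cp-high libraries (15.3 to 53.0 CPM), Sardh separates the neither class (0.561 to 2.64 CPM), and Phgdh, Psat1, Psph, Shmt2, Mthfd1 and Mthfd2 have their highest medians in the H2-Ea-ps class.

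Inmt (ENSMUSG00000003477; GRCm38 chromosome 6, 55170626 to 55175043, minus strand), the indolethylamine N-methyltransferase, lay between 15.3 and 53.0 CPM in the Cp-high class, with a median of 32.3. In the H2-Ea-ps class it lay between 0 and 3.02 CPM with a median of 0.750, and in the neither class between 0.0608 and 4.98 CPM with a median of 0.457. All 12 Cp-high libraries were therefore above all other 24 libraries, and the median was 70.6-fold that of the neither class and 43.0-fold that of the H2-Ea-ps class. The library without a count, PancO2 IgG 54, allows a level of up to 0.213 CPM (3 counts, counting error only). The highest library outside the Cp-high class, PancO2 IgG 49 with 118 counts, was well above the second highest of the neither class at 1.01 CPM. Within the Cp-high class the coefficient of variation (SD over mean) was 35.2%.

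Sardh (ENSMUSG00000009614; chromosome 2, 27188393 to 27248337, minus strand) had nearly equal medians in 2 classes, 47.9 CPM in the H2-Ea-ps class (18.8 to 56.7) and 47.96 CPM in the Cp-high class (35.5 to 63.7). In the neither class it lay between 0.561 and 2.64 CPM with a median of 1.27, so that no library of that class reached any library of the others. The ratio of medians was 37.8 for each of the 2 classes over the neither class. PancO2 anti-PD-1 71 gave the value of 18.8 CPM. The remaining 11 libraries of the H2-Ea-ps class lay between 42.7 and 56.7 CPM with a coefficient of variation of 8.71%. Exons of Sardh overlap the antisense gene Sardhos by 188 bases, and Sardhos was at 0.0971 CPM over all libraries pooled. Dmgdh, the dehydrogenase one step earlier that makes sarcosine from dimethylglycine, was near absent by contrast, with medians of 0.0303, 0.0488 and 0 CPM in the H2-Ea-ps, Cp-high and neither classes. Its highest value, 9.13 CPM, was in PancO2 anti-PD-1 71.

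Nnmt (ENSMUSG00000032271; chromosome 9, 48591877 to 48605153, minus strand), which methylates nicotinamide, had medians of 13.2 CPM in the H2-Ea-ps class (5.07 to 18.4), 9.65 in the Cp-high class (6.07 to 12.7) and 7.63 in the neither class (5.88 to 9.53). The ranges overlapped in all 3 pairs of classes, and without PancO2 anti-PD-1 71 the lowest library of the H2-Ea-ps class, 11.2 CPM, was above all of the neither class. Nampt, which recycles nicotinamide to NAD, had medians of 205, 216 and 222 CPM in the 3 classes.

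The serine synthesis enzymes were each highest in the H2-Ea-ps class. Phgdh (ENSMUSG00000053398; chromosome 3, 98313170 to 98339990, minus strand), the first and committed enzyme, had a median of 238 CPM in the H2-Ea-ps class (115 to 273), 86.3 in the Cp-high class (57.8 to 152) and 146 in the neither class (109.7 to 186). Psat1 (ENSMUSG00000024640; chromosome 19, 15904678 to 15947337, minus strand), the transaminase, had medians of 432 (288 to 488), 203 (112 to 436) and 216 (125 to 323) CPM in the same order. Psph (ENSMUSG00000029446; chromosome 5, 129765558 to 129787449, minus strand), the phosphatase of the last step, had medians of 62.2 (39.96 to 73.3), 27.1 (17.7 to 56.3) and 34.1 (20.3 to 50.1) CPM. The lowest H2-Ea-ps library was PancO2 anti-PD-1 71 for all 3 genes. Without it, the lowest were 199.9 CPM for Phgdh, 366 for Psat1 and 53.6 for Psph, above every library of the neither class. The Phgdh libraries were then also apart from the Cp-high class, while Psat1 and Psph still overlapped it. Psph shares 452 exon bases with Cct6a on the other strand, a chaperonin gene at 317 CPM over all libraries pooled, and the strand setting of the counting is not given in the sources used here, so Psph counts are uncertain to that extent.

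Both serine hydroxymethyltransferases had their lowest median in the Cp-high class, and they differed in which class was highest. Shmt2 (ENSMUSG00000025403; chromosome 10, 127517123 to 127522444, minus strand), the mitochondrial enzyme, had medians of 314 CPM in the H2-Ea-ps class (138 to 363), 116 in the Cp-high class (78.7 to 209) and 169 in the neither class (98.4 to 226). Shmt1 (ENSMUSG00000020534; chromosome 11, 60788104 to 60811718, minus strand), the cytosolic enzyme, had medians of 39.6 CPM in the H2-Ea-ps class (23.2 to 47.8), 17.05 in the Cp-high class (12.1 to 24.2) and 50.6 in the neither class (33.3 to 59.8). Without PancO2 anti-PD-1 71 the H2-Ea-ps libraries began at 279 CPM for Shmt2, above all 24 others, and at 37.1 CPM for Shmt1. For Shmt1 the 12 Cp-high libraries lay below all 12 of the neither class, with a ratio of medians of 2.97. Shmt1 shares 184 exon bases with Smcr8 on the other strand, at 69.9 CPM over all libraries pooled, and Shmt2 shares 32 with Ndufa4l2, at 2.85 CPM.

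Among the methylenetetrahydrofolate dehydrogenases, Mthfd1 (ENSMUSG00000021048; chromosome 12, 76255298 to 76319803, plus strand) had medians of 115 CPM in the H2-Ea-ps class (54.3 to 125), 73.5 in the Cp-high class (65.6 to 93.5) and 67.4 in the neither class (48.4 to 74.6). Mthfd2 (ENSMUSG00000005667; chromosome 6, 83305691 to 83325908, minus strand) had medians of 193 (111 to 221), 68.2 (37.9 to 160.3) and 136 (66.1 to 169.6) CPM. Without PancO2 anti-PD-1 71 the H2-Ea-ps libraries began at 95.1 CPM for Mthfd1 and 177 CPM for Mthfd2, above all 24 libraries of the other classes for both genes.

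Counted over the 10 members, 1 (Sardh, higher) had libraries that did not overlap between the H2-Ea-ps and neither classes. Of the 14180 genes compared 27.1% did so, 9.25% higher and 17.9% lower. Without PancO2 anti-PD-1 71 the count was 8 of 10, all higher in the H2-Ea-ps class, against 34.9% of genes, 13.7% higher and 21.2% lower. The 2 members that still overlapped were Inmt and Shmt1. Between the Cp-high and neither classes 3 of 10 did not overlap (Inmt and Sardh higher, Shmt1 lower), against 31.0% of genes, 14.9% higher and 16.2% lower. Between the H2-Ea-ps and Cp-high classes 1 of 10 did not overlap (Inmt, lower), against 32% of genes, 12.3% higher and 19.7% lower. Without PancO2 anti-PD-1 71 it was 6 of 10 (Shmt1, Shmt2, Mthfd1, Mthfd2 and Phgdh higher, Inmt lower), against 40.5% of genes. The median log2 ratio of class medians (with 0.5 CPM added) over the members was 0.76 for H2-Ea-ps over neither, where the median of all genes was -0.09, and 1.13 for H2-Ea-ps over Cp-high, where that of all genes was -0.07. For Cp-high over neither it was -0.21, with all genes at -0.03. The share of members therefore stood near the background in the comparison of Cp-high with neither, and the 2 counts with the H2-Ea-ps class turned on 1 library.

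The balance between compartments also differed by class when levels were divided by exon length. Shmt2 over Shmt1, as a ratio of CPM per kb, had a median of 9.41 in the H2-Ea-ps class (7.40 to 11.9), 9.82 in the Cp-high class (6.81 to 13.5) and 4.39 in the neither class (3.11 to 5.65). The neither class lay below every library of both others. Mthfd2 over Mthfd1 had medians of 2.19 (1.91 to 2.60), 1.22 (0.675 to 2.68) and 2.52 (1.29 to 3.30), and these ranges overlapped. Without PancO2 anti-PD-1 71 the H2-Ea-ps class ran from 8.44 to 11.9 for the first ratio and from 1.91 to 2.56 for the second.

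**Figure D2:**
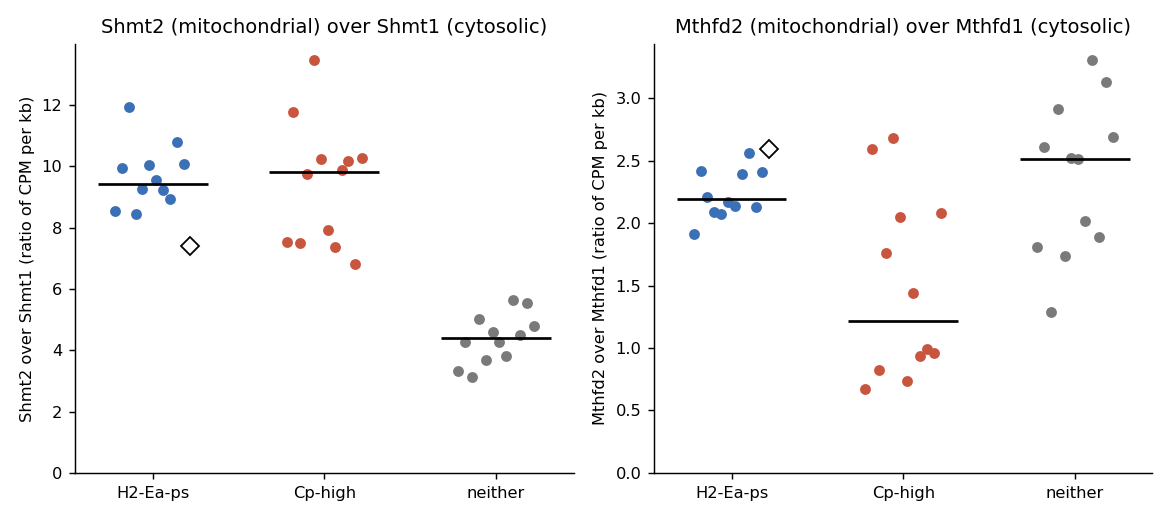
Ratio of the mitochondrial to the cytosolic enzyme, as CPM per kb of exon, in each of the 36 libraries by class; bars are class medians and the open diamond is PancO2 anti-PD-1 71. For Shmt2 over Shmt1 the neither class stays at or under 5.65 and the other classes at or above 6.81, while for Mthfd2 over Mthfd1 the Cp-high class spreads from 0.675 to 2.68.

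Of 52 other genes of these pathways, 42 were expressed enough to be compared. Between the H2-Ea-ps and neither classes 9 of the 42 (21.4%) did not overlap, 3 higher and 6 lower, against 27.1% of all genes compared. Leaving out PancO2 anti-PD-1 71 made it 14 (33.3%), against 34.9%. Aldh1l2, the mitochondrial 10-formyltetrahydrofolate dehydrogenase, lay between 123 and 297 CPM in the H2-Ea-ps class and between 17.3 and 57.1 in the neither class, a log2 ratio of medians of 2.99, and between 10.9 and 113 in the Cp-high class. Mthfd1l, the mitochondrial formate-producing enzyme, had medians of 32.4, 16.5 and 13.9 CPM in the H2-Ea-ps, Cp-high and neither classes. Slc1a5, a neutral amino acid transporter, had medians of 280.0 and 121 CPM in the H2-Ea-ps and neither classes, and Aox1, the aldehyde oxidase that oxidises methylnicotinamide, 54.3 and 13.99, with overlapping ranges for both. Without PancO2 anti-PD-1 71 the ranges of Slc1a5 no longer overlapped, while those of Aox1 still did. On the lower side, Mtr (methionine synthase) had a median of 27.8 CPM against 53.0, Fpgs (folylpolyglutamate synthase) 21.6 against 36.1, and Ggh (gamma-glutamyl hydrolase, which undoes the work of Fpgs) 3.94 against 13.1, and none of these overlapped.

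In the Cp-high against the neither class 15 of the 42 (35.7%) did not overlap, 6 higher and 9 lower, against 31.0% of all genes compared. Aldh1l1, the cytosolic counterpart of Aldh1l2, had medians of 13.7 and 2.76 CPM, and Gamt, which makes creatine with S-adenosylmethionine, 19.1 and 4.31. Pipox, which oxidises pipecolate and sarcosine, was detected in every Cp-high library, at 1.13 to 6.59 CPM, and reached at most 0.0316 CPM in the neither class. Genes entered the comparison at 1 CPM or more in at least 12 libraries, which the Cp-high libraries met alone for Pipox. No weight is therefore put on its place among the 15. Mtr was lower, at 20.9 against 53.0 CPM, as was As3mt, the arsenic methyltransferase, at 5.49 against 19.9 CPM. Folr2, a folate receptor of macrophages, had medians of 2.23 and 10.4 CPM, with overlapping ranges. Between the H2-Ea-ps and Cp-high classes 13 of the 42 (31.0%) did not overlap, 9 higher (Aldh1l2, Folr2 and As3mt among them) and 4 lower (Aldh1l1, Gamt, Ggh and Slc46a1), against 32% of all genes compared. With PancO2 anti-PD-1 71 left out it was 20 (47.6%), against 40.5%.

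Of 14 genes of the amino acid and integrated stress response, 1 (7.14%; Asns, higher) did not overlap between the H2-Ea-ps and neither classes, against 27.1% of all genes compared. The count without PancO2 anti-PD-1 71 was 6 (42.9%; Atf4, Asns, Chac1, Trib3, Slc3a2 and Sars, all higher), against 34.9%. Asns lay between 335 and 436 CPM in the H2-Ea-ps class, including PancO2 anti-PD-1 71, between 36.1 and 199 in the Cp-high class and between 29.9 and 106 in the neither class. Between the Cp-high and neither classes 1 of 14 did not overlap, Nupr1, a stress-induced chromatin regulator, with medians of 164 and 58.2 CPM, against 31.0% of all genes compared. Between the H2-Ea-ps and Cp-high classes it was 4 of 14, against 32%, and 5 of 14 without PancO2 anti-PD-1 71, against 40.5%. Ddit4, an inhibitor of mTORC1 that hypoxia also induces, followed another order, with medians of 30.9 CPM in the H2-Ea-ps class, 147 in the Cp-high class and 67.9 in the neither class.

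Variation between libraries of the same class was then examined, which the class rule did not use. Without PancO2 anti-PD-1 71, the 7 serine and folate enzymes of the H2-Ea-ps class had coefficients of variation of 7.17% (Mthfd2) to 9.92% (Psph), and the methyl transfer enzymes of 8.71% (Sardh), 14.5% (Nnmt) and 92.9% (Inmt). With that library, the 7 enzymes ran from 13.3% (Psat1) to 19.1% (Shmt2) in the H2-Ea-ps class. In the neither class they ran from 12.6% (Mthfd1) to 27.9% (Mthfd2). In the Cp-high class the same enzymes ran from 11.1% for Mthfd1 and 23.4% for Shmt1 to 43.1% for Psph, 47.6% for Psat1 and 50.8% for Mthfd2. Psat1 formed a gradient there, and the 4 libraries highest for Psat1 (305 to 436 CPM, against 112 to 220 in the other 8) were also the 4 highest for Phgdh, Psph, Shmt2 and Mthfd2. These 4 carried 4 labels: MC38 anti-CTLA4 8, MC38 anti-PD-1 17, CT26 anti-CTLA4 36 and PancO2 anti-PD-1 70. They were the 4 highest as well for Atf4, Asns, Chac1, Trib3, Ddit3, Sesn2, Slc3a2, Slc7a5, Aars, Sars and Nupr1 of the stress response list. They shared 3 of 4 with the highest libraries for Shmt1, Nnmt and Slc7a11 and 2 of 4 for Inmt, Mthfd1 and Cebpb. For Ddit4 and Sardh they shared 0 of 4. The share of all genes with the same 4 highest libraries as Psat1 was not measured in any class. Such sharing is therefore not shown to be particular to these genes. The same 4 libraries had the lowest sums of the 8 fibroblast markers in the class, 3288 to 4180 CPM against 4452 to 6451, and the highest sums of the 6 pancreas markers, 215 to 253 CPM against 177 to 212. Sox9, Pdx1 and Krt19 made up nearly all of the pancreas sum, with class medians of 128, 55.6 and 21.3 CPM. Ptf1a was at 0, and Cpa1 and Prss2 had medians under 0.1 CPM. In the H2-Ea-ps class, the 4 libraries highest for Psat1 were also the 4 highest for Phgdh, Atf4, Asns and Sars. They shared 3 of 4 for Psph and 2 of 4 for Shmt2 and Mthfd2. The 4 highest for Psat1 in the neither class shared 4 of 4 for Psph. For Phgdh, Shmt2, Mthfd2 and Asns they shared 3 of 4, and for Atf4 2 of 4.

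**Figure D3:**
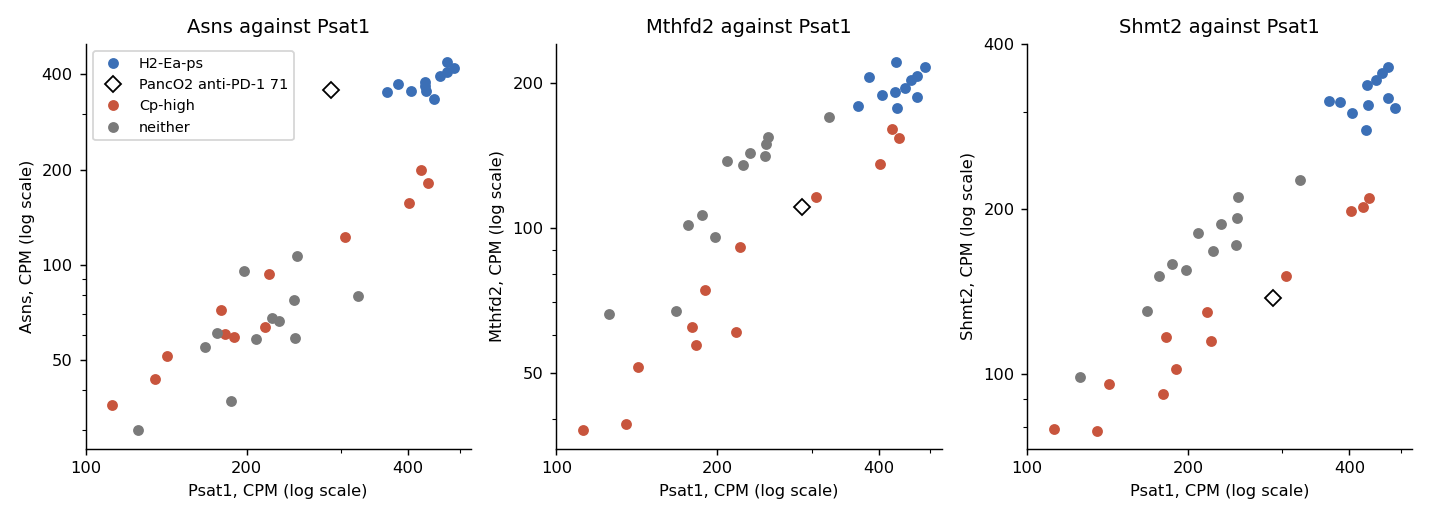
Asns, Mthfd2 and Shmt2 against Psat1, each point 1 library (CPM, log scales), coloured by class; the open diamond is PancO2 anti-PD-1 71. In the Cp-high class all 3 genes rise with Psat1 from 112 to 436 CPM, and in the H2-Ea-ps class Asns stays between 335 and 436 CPM.

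Relations between pairs of genes were tested on log2 CPM within each class, 20 relations in 3 classes, with Benjamini-Hochberg adjustment over the 60 and 100000 permutations each. By Pearson r, 27 of 60 had an adjusted permutation p under 0.05, 8 in the H2-Ea-ps class, 11 in the Cp-high class and 8 in the neither class, and by Spearman rho 21 of 60 did. The share of other gene pairs that would pass was not measured, so these counts do not show that such relations are particular to these enzymes. In the Cp-high class Psat1 and Mthfd2 had r = 0.975 and rho = 0.958 (n = 12, adjusted permutation p = 7.5e-05 and 0.0001, from raw p of 1e-05, the smallest these permutations can give), and r was 0.957 without the 2 libraries farthest from the Psat1 median. Psat1 and Shmt2 had r = 0.978 and rho = 0.951 with the same p-values, and r = 0.960 without the farthest 2. For Psat1 and Asns r was 0.981 and rho 0.944 (adjusted permutation p = 7.5e-05 and 0.00015), and r = 0.968 without the farthest 2.

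The same pairs were related in the neither class, where Psat1 and Mthfd2 had r = 0.916 and rho = 0.965 (n = 12, adjusted permutation p = 7.5e-05 and 0.00015; r = 0.906 without the 2 farthest libraries). Psat1 and Asns had r = 0.710 and rho = 0.699 there (adjusted permutation p = 0.0264 and 0.0407), and r = 0.491 without the 2 farthest. Shmt1 and Mthfd1, the cytosolic pair, had r = 0.943 and rho = 0.951 in the neither class (adjusted permutation p = 0.000164 and 0.00024; r = 0.864 without the 2 farthest) and r = 0.637 in the Cp-high class (adjusted permutation p = 0.0540; rho = 0.601, adjusted permutation p = 0.0956), where the value was r = 0.575 without the farthest 2.

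In the H2-Ea-ps class the relations rested on PancO2 anti-PD-1 71. With it 8 of 20 passed by Pearson r and 2 by Spearman rho, and without it 1 of 20 did by r (Phgdh and Psph, r = 0.704, n = 11, adjusted permutation p = 0.0448) and 0 of 20 by rho. Psat1 and Mthfd2 went from r = 0.837 to 0.396, and Shmt2 and Mthfd2 from 0.927 to 0.379. Sardh and Dmgdh had r = -0.922 with that library (rho = -0.278, adjusted permutation p = 0.0540 and 0.517) and -0.173 without it.

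Mthfd1, Mthfd2 and Shmt2 were also set against Mki67, a gene of cycling cells. None of the 9 relations passed by either measure, with r from -0.364 (Mthfd1, neither class) to 0.292 (Mthfd1, Cp-high class; smallest adjusted permutation p = 0.365 by r). Of the methyl transfer enzymes, Inmt fell with Col1a1 across the Cp-high class (r = -0.737, rho = -0.699, n = 12, adjusted permutation p = 0.0203 and 0.0407), but r was -0.303 without the 2 libraries farthest from the Inmt median, so the relation rested on them. Inmt with Dcn, Nnmt with Inmt, Nnmt with Col1a1 and Nnmt with Nampt passed in 0 of 3 classes each.

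Because the fibroblast marker sum moved with Psat1 in the Cp-high class, each gene was also fitted on that sum within its class and the residuals correlated, a step added after the data were seen. In the Cp-high class Psat1 and Mthfd2 then had r = 0.920, Psat1 and Shmt2 0.912, and Psat1 and Asns 0.927, while the 3 relations of Phgdh dropped below the threshold (Phgdh with Psat1 r = 0.535, with Psph 0.635, with Asns 0.510, from 0.895, 0.926 and 0.903). Inmt with Col1a1 also dropped below it (r = -0.547, adjusted permutation p = 0.113). Col1a1 is itself part of the fibroblast sum, so some of that drop was built in and nothing is concluded from it. The part of the pancreas marker sum, which moved with Psat1 as well, was not tested. The fibroblast sum is not a measure of cell composition, since its markers followed different orders between classes. Whether composition accounts for the remaining relations was not tested.

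**Figure D4:**
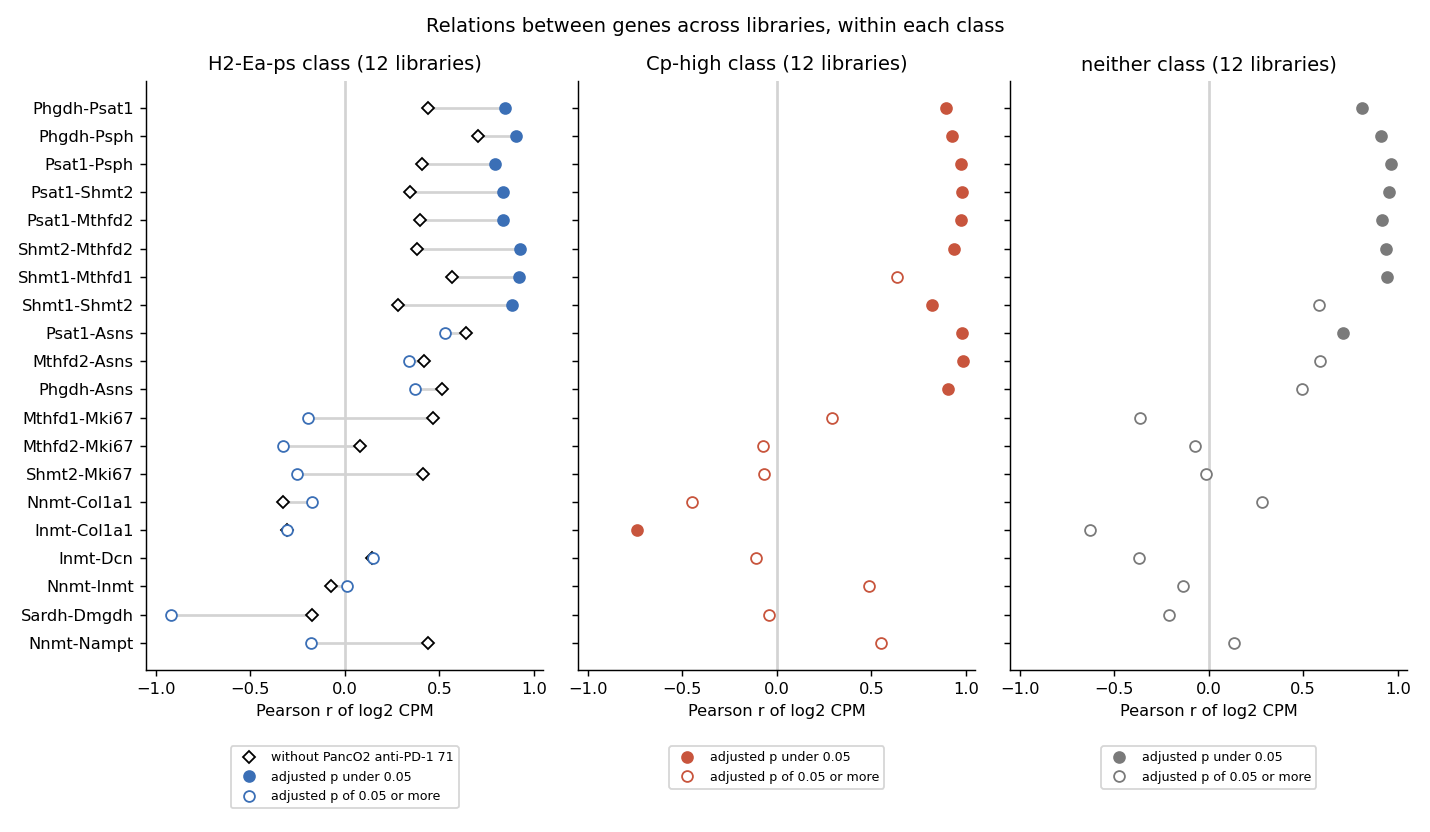
Pearson r of log2 CPM for 20 gene pairs within each class (12 libraries); filled points have an adjusted permutation p under 0.05, and diamonds in the H2-Ea-ps panel give r without PancO2 anti-PD-1 71. Serine and mitochondrial folate enzymes lie at or above 0.81 with each other in the Cp-high and neither classes, while in the H2-Ea-ps class their r falls to 0.346 to 0.704 without that library.

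The genes most like each member were taken by Pearson r of class-centred log2 CPM over 35 libraries (without PancO2 anti-PD-1 71), among 13677 genes, as a description. Psat1 was most like Cars (r = 0.960), Psph (0.953) and Gars (0.951), Psph like Psat1, Nars (0.950) and Gars (0.949), and Mthfd2 like Gars (0.957), Psph (0.947) and Psat1 (0.946). Cars, Gars and Nars charge tRNA with cysteine, glycine and asparagine. Shmt2 was most like Psat1 (0.951), the amino acid transporter Slc7a5 (0.941) and Aldh18a1 (0.938), an enzyme of proline synthesis, and Phgdh like Psph (0.905), Aldh18a1 (0.901) and Nars (0.883). The cytosolic enzymes had other neighbours: Shmt1 was most like Nop58 (0.920) and Prps1 (0.916), and Mthfd1 like Umps (0.882), Tfdp1 (0.865) and Gart (0.861), of which Prps1, Umps and Gart make nucleotides. The methyl transfer enzymes reached lower values, Inmt with Tlr3 (0.770), Frmd5 (0.756) and Hap1 (0.743), Sardh with Habp4 (0.727), Mospd1 (0.726) and Zfp229 (0.721), and Nnmt with Dnajc17 (0.611), Smurf1 (0.604) and Cd47 (0.601). With PancO2 anti-PD-1 71 included, 14 of the 30 genes so chosen were still among the 3 nearest of their member.

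The study asked how tumour metabolism relates to resistance to checkpoint blockade, so the labelled models and treatments were compared as well. Each labelled group held libraries of 2 or 3 classes, and the members followed the class. In MC38 IgG, Inmt was 0.521, 0.485, 0.909 and 53.0 CPM, the last in the Cp-high library. In CT26 IgG it was 0.0608, 0.782, 28.3 and 0.441 CPM, and in PancO2 IgG 15.3, 4.98, 0.473 and 0 CPM. Each of these groups had 1 high library, the Cp-high one. Sardh was 1.04, 50.97, 43.8 and 53.0 CPM in MC38 IgG, 1.67, 46.7, 47.8 and 1.053 in CT26 IgG, and 35.5, 1.31, 0.561 and 42.7 in PancO2 IgG, with the neither-class libraries at the low values.

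**Figure D5:**
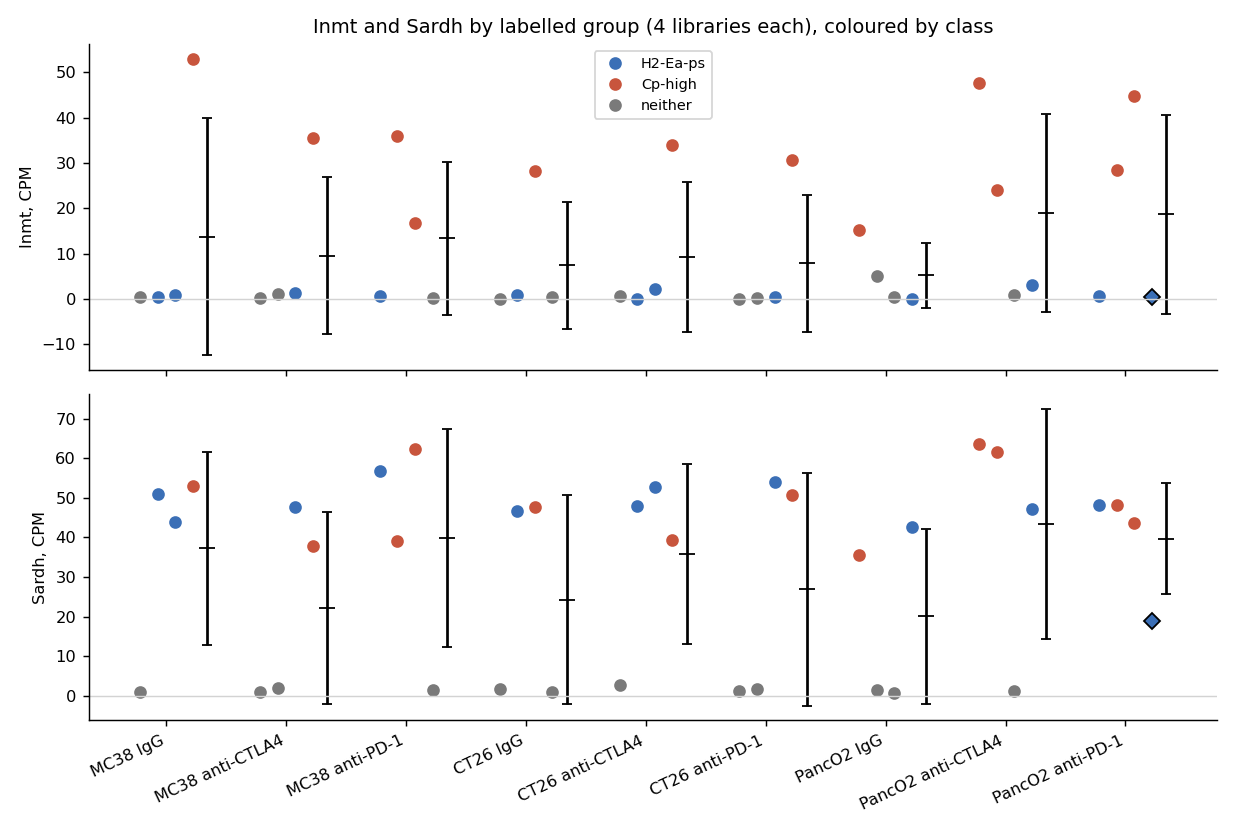
Inmt (top) and Sardh (bottom) in CPM by labelled group, each point 1 library coloured by class, with the group mean and SD (n = 4) beside it; the black-edged diamond is PancO2 anti-PD-1 71. High Inmt points are the Cp-high libraries in every group and low Sardh points are the neither-class libraries, and the SD of Inmt exceeds its mean in all 9 groups.

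Over the 4 libraries of a group, Inmt was 13.7 ± 26.2 CPM (SD, n = 4) in MC38 IgG, 7.41 ± 13.96 in CT26 IgG and 5.19 ± 7.11 in PancO2 IgG. Between PancO2 and MC38 it changed by -1.44 on the log2 scale with a standard error of 2.07 in the edgeR quasi-likelihood test (adjusted p = 0.99996), which was within the spread of the libraries. Sardh was 37.2 ± 24.4, 24.3 ± 26.5 and 20.01 ± 22.2 CPM in the same order, and its change between PancO2 and MC38 was -0.95 on the log2 scale (edgeR quasi-likelihood test, standard error 1.53, adjusted p = 0.99996). Without MC38 IgG 7, the Inmt change between PancO2 and MC38 was 2.93.

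In the 11 comparisons the labels imply, 3 between models under IgG, 6 of a treatment with IgG within a model and 2 of a treatment with IgG over all libraries with the class as a term, 0 of 10 members passed an adjusted p of 0.05 by the edgeR quasi-likelihood test, and 0 had an unadjusted p under 0.05. Over all genes tested, 16285 to 17213 per comparison, 0 were called, which is 0% in each comparison, while 25 to 912 had an unadjusted p under 0.05. The DESeq2 Wald test also called 0 members and at most 2 genes. Over all libraries with the class as a term, the members' log2 fold changes for anti-PD-1 over IgG ranged from -0.61 for Inmt (standard error 0.50) to 0.12 for Sardh (0.15). The sign of the Inmt value was not stable, at 0.63 without the class term and 0.10 with limma-voom. For anti-CTLA4 over IgG they ranged from -0.02 for Nnmt (0.14) to 0.23 for Sardh (0.15), all with adjusted p of 0.944 or more in the edgeR test. The other pathway and stress response genes had 0 called in any of these comparisons. A p that misses the threshold does not show equal levels, and the standard errors show that changes of 1 on the log2 scale in Inmt or Sardh between labelled models were within error here.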

How the data were processed

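RNA was isolated with TRIzol from whole tumours and poly-A libraries were made with the TruSeq RNA kit V2. Per the labels, the authors' processing used FastQC 0.11.5, Bowtie2 and HTSeq 07.2 on mm10, and what they deposited is a matrix of unnormalized read counts by Ensembl gene. The annotation release and the strand setting are not given in the sources used here. The 5 summary lines of the count file were left out of the totals. Of 37417 genes, 32608 had a symbol. Every pair of libraries differed beyond sampling noise (chi-square of 7.26 or more per degree of freedom). Total counts per library, which set the precision, ran from 7883106 to 41751023. Floors cover counting error only.

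CPM used total assigned counts, and log2 CPM for relations used a prior count of 2. Genes at 1 CPM or more in at least 12 libraries entered class comparisons. Labelled groups were compared with edgeR 4.0.16 (quasi-likelihood, filterByExpr, TMM, Benjamini-Hochberg), with limma-voom 3.58.1 and DESeq2 1.42.0 as alternatives, in R 4.3.3. Scripts were tested on simulated data. The replicate numbers belong to 1 library each. The labels do not say how tumours relate beyond separate samples, so p-values measure the spread between these libraries. The members and all gene lists were chosen with earlier results of these data known. All 10 members are named, and other genes by size of class ratio (3 in each direction per list) or likeness. Pipox, Mthfd1l, Dmgdh and Nampt were named after their values were seen. Gene positions are those of GENCODE M21 on GRCm38 and promoter sequences those of RefSeq on GRCm38.p6, which held 9 of 10 members (Nnmt is the other). One of the genes most like a member is not reported here.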

Additional observations from a re-analysis of the deposited data

Results flagged for a closer look

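Among 90 sets of 4 libraries (10 members in 9 labelled groups), 13 held a library far from the other 3 by Dixon's test. Chance alone would give about 1 in 20, or 4.5, if the sets were unrelated. They are not, because labelled groups mix classes and the members vary together and were chosen from these data. The excess was therefore built in, and the sets are listed as a description. Inmt gave 5 of them, each the Cp-high library of its group: 53.0 CPM in MC38 IgG 7 (others 0.485 to 0.909), 35.6 in MC38 anti-CTLA4 8 (0.271 to 1.38), 28.3 in CT26 IgG 28 (0.0608 to 0.782), 33.98 in CT26 anti-CTLA4 36 (0.0602 to 2.11) and 30.6 in CT26 anti-PD-1 46 (0.0818 to 0.424).

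H2-Ea-ps libraries gave 6 sets. Nnmt was 14.9 CPM in CT26 IgG 27 (others 7.35 to 7.84) and 15.3 in PancO2 IgG 54 (7.59 to 8.33), Mthfd1 was 118 in CT26 IgG 27 (72.6 to 74.6) and 117 in PancO2 anti-CTLA4 62 (69.8 to 73.3), Phgdh was 228 in MC38 anti-CTLA4 14 (139 to 152), and Sardh was 18.8 in PancO2 anti-PD-1 71 (43.6 to 48.1). That last library, with a high share of mitochondrial counts, shared its class with 1 of the other 3, and in the other 12 sets the library was the only one of its class. Shmt1 was 17.3 CPM in PancO2 IgG 48, a Cp-high library (others 38.8 to 42.9), and Psat1 was 167 CPM in CT26 anti-CTLA4 32, of the neither class (436 to 488).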

How the results depend on the processing

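No paired analysis was possible because each replicate number in the labels belongs to 1 library. Over the 155 fits of the 11 labelled comparisons, 0 members were called, and at most 2 had an unadjusted p under 0.05. Leaving out each library in turn gave 0 genes and 0 members in each of the 72 fits. The number of genes called moved from 0 to 1 by the DESeq2 Wald test for PancO2 over MC38 and for CT26 over MC38, to 2 for each treatment over IgG in PancO2, and to 49 for anti-PD-1 in PancO2 when all 36 libraries were fitted together. The uncalled log2 change of Inmt turned sign for PancO2 over MC38 with a class term (0.34), with all libraries and that term without PancO2 anti-PD-1 71 (0.83), and in leave-one-out fits (-2.93 to 2.93). For PancO2 over CT26 it turned with limma-voom (0.92), the class term (1.11), and all libraries with that term (1.48), and left-out libraries gave -2.07 to 3.51. For CT26 over MC38 they gave -4.96 to 3.51. For anti-PD-1 over IgG in all libraries it turned with limma-voom (0.0987) and without the class term (0.6254). Sardh turned for CT26 over MC38 with the class term (0.069) and ranged from -1.051 to 0.22 for PancO2 over CT26 in leave-one-out fits.

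Members without overlap between H2-Ea-ps and neither numbered 1 (27.1% of all genes compared), but 2 with TMM or without mitochondrial genes in the totals (Psat1 joined Sardh). They numbered 8 without PancO2 anti-PD-1 71 (34.9% of all genes compared). Between H2-Ea-ps and Cp-high they numbered 1, but 2 (Inmt and Shmt1) and 6 under those settings. Class limits of 1 and 500 CPM, which moved 1 library to the Cp-high class, left 1 between Cp-high and neither (Inmt) in place of 3. Limits of 30 and 2000 CPM left 1 library in the Cp-high class and gave 0, 0 and 7. With 1 library on a side a lack of overlap is reached more easily, so the 7 cannot be compared with the other counts. Shares of all genes under the remaining settings are not given here. Relations passing by Pearson r numbered 27, 27 with a prior count of 0.5, 30 with TMM, 27 on residuals and 20 without PancO2 anti-PD-1 71. The equal total on residuals hides a shift between classes. There the Cp-high class fell from 11 to 7, and the H2-Ea-ps and neither classes each rose from 8 to 10. Of the 30 most similar genes, 27 were shared under TMM and 14 with all 36 libraries. Cell composition was not measured.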
